A study of Mus musculus with 6 samples.

Results

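The MYC family and its partners around MAX were followed in 6 mouse osteosarcomas, 3 with an intact Skp2 gene and 3 without it. The network was taken as a fixed list of 10 genes, found by symbol among the 56196 genes of the count table: the activators Myc, Mycn and Mycl, their shared partner Max, the repressors Mxd1, Mxi1, Mxd3 and Mxd4, and the larger proteins Mnt and Mga. All 10 were in the table, and 9 passed the filter on low counts, the exception being Mycn.

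MYC proteins are helix-loop-helix leucine zipper transcription factors that bind DNA only as dimers with MAX. Such a dimer reads the E-box CACGTG and raises transcription of genes for ribosome assembly, metabolism and growth. The MXD proteins and MNT also pair with MAX, bind the same sites and recruit the SIN3 corepressor with its histone deacetylases. MGA joins MAX to the repressive polycomb complex PRC1.6. MYC protein is short-lived, and SKP2, the subunit that chooses substrates for an SCF ubiquitin ligase, is one of the ligases known to mark it for degradation. MYC is often gained in osteosarcoma. RNA counts say nothing of the amount of MYC protein.

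The E-box was searched in the RefSeq promoter windows (GRCm38.p6, 250 bases before to 50 after each annotated start), because network genes can carry the site that the network reads. Of the 10 members, 9 had a window. Myc had none, so its promoter was not searched. Of these 9, 3 (33.3%) held CACGTG, which is its own reverse complement, beside 8.09% of the 27025 genes with a window. The stretch around each match is shown 5′ to 3′ on the gene's own strand, with the match in capitals. The Mxd4 stretch (chr5:34187897-34187956, minus strand) has its E-box 219 bases before the start, the Mnt stretch (chr11:74830774-74830833, plus strand) 123 bases before it, and the Max stretch (chr12:76962219-76962278, minus strand) across it, from 3 bases before.
Mxd4: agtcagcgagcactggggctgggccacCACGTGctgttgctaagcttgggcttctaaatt
Mnt: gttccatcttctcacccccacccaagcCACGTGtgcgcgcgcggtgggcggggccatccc
Max: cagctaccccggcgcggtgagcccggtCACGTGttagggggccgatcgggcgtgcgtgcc
A match is a description of the letters in the window and was not measured as a bound site.

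The E2F-type motif TTTNNCGC was searched on both strands of the same windows, since E2F factors are released when Rb1 is lost, and all 6 tumours are labelled with floxed Rb1 and Cre. Among the 9 members with a window, Mycn alone held it, beside 5.93% of all genes with a window. Its 3 overlapping or neighbouring matches began 183 bases before the start (chr12:12941987-12942046, minus strand). Myc, which had no window, was not searched for this motif either.
Mycn: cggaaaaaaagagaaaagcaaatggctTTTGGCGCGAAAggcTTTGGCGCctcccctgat
The capitals mark the 3 matches, 1 of them on the opposite strand.

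All 6 tumours carried Osx1-Cre, which expresses a Cre recombinase from the promoter of Osx1 (Sp7), a factor of osteoblast precursors, together with Rb1lox/lox and p53lox/lox. The 3 double knockout tumours (DKO) had no other allele named, and the 3 triple knockout tumours (TKO) were also SKP2-/-, written without a lox site, so that host cells in those tumours would lack it too. Replicate 1 was male and replicates 2 and 3 female in each group. Nothing in the labels says that each tumour came from a separate mouse, so p-values here speak of the spread among these 6 samples, part of which may be technical.

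Libraries held 17063231 to 22488819 gene counts, and values below are CPM (counts divided by the TMM-scaled library size and put on the usual scale of that unit) unless another unit is named. Skp2 had 20, 64 and 46 counts in DKO1 to DKO3 and 0 in each TKO library, at least 49.4-fold lower over the group (edgeR's quasi-likelihood test, adjusted p = 0.0284, called in 9 of 15 alternatives). Counts over the whole of Rb1 and Trp53 do not isolate the floxed exons and do not check the deletions. Rb1 was 20.6 ± 2.37 CPM in DKO and 62.9 ± 25.2 in TKO (SD, n = 3) and was called higher (3.06-fold, edgeR adjusted p = 0.0419). Trp53 was 6.75 ± 0.674 and 22.7 ± 14.7 CPM, with groups that did not overlap and no call (3.36-fold, adjusted p = 0.115). TKO1 stood apart from the other TKO libraries, with correlations of log2 CPM across genes of 0.83 and 0.805 to TKO2 and TKO3, which had 0.915 with each other. The summed level of osteoblast markers was 20060 to 31842 CPM in DKO, 4854 in TKO1 and 77543 and 91020 in TKO2 and TKO3. Col1a1 alone held 9947 to 11757 CPM in DKO. Of the 15 markers listed, 3, 4 and 2 had no count in DKO1, DKO2 and DKO3, and 4 had none in TKO1. Sp7 had 160, 0 and 7 counts in DKO and 0, 4280 and 8501 in TKO. Of the 13 tested, 2 rose in TKO (Dmp1 and Phex), beside 4.89% of all genes tested. With at least 1 CPM required in each group, 11 were tested and 0 rose.

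Markers of host cells separated the groups. Summed macrophage markers ran from 24.4 to 134 CPM in DKO and from 1956 to 4415 CPM in TKO, and 17 of 19 rose. In DKO1, DKO2 and DKO3, 9, 5 and 6 of the 19 had no count, C1qb and C1qc in all 3. Endothelial markers summed to 58.1 to 177 CPM in DKO and 235 to 1278 CPM in TKO, with 12 of 14 higher, and skeletal muscle markers to 5.78 to 20.2 CPM and 691 to 13785 CPM, with 12 of the 15 tested higher. Red cell markers summed to 0.797 to 1.63 CPM in DKO and 90.9 to 1169 CPM in TKO, with 4 of the 5 tested higher. The sums of B and plasma cell markers (179 to 282 and 231 to 906 CPM, 5 of 7 tested higher) and of T and NK cell markers (1.79 to 4.39 and 3.79 to 31.3 CPM, 1 of 3 tested higher, Cd4) overlapped between groups. Of all genes tested, 4.89% were called higher. Many of these markers had few or no counts in DKO and passed the count filter through TKO. With at least 1 CPM required in each group, 6 macrophage, 4 endothelial, 6 muscle and 0 red cell markers were tested. Of these, 4, 1, 2 and 0 were higher. Macrophage markers called without DKO1, DKO2 and DKO3 were 7, 1 and 0. All 6 samples are labelled as pieces of fresh tumour, yet the DKO libraries held few or no counts of blood, vessel, macrophage and muscle genes. The cell make-up of the material and the loss of Skp2 therefore cannot be told apart in any TKO against DKO value below. Since these are bulk samples, fewer cells of a type and less RNA per cell cannot be told apart. Genes of dividing cells had no call among 24 tested, with sums of 2861 to 3009 CPM in DKO. In TKO the sum was 5258 CPM in the first tumour, 2156 in the second and 1574 in the third. The part of any of these cell types in the values of the network was not tested.

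**Figure D1:**
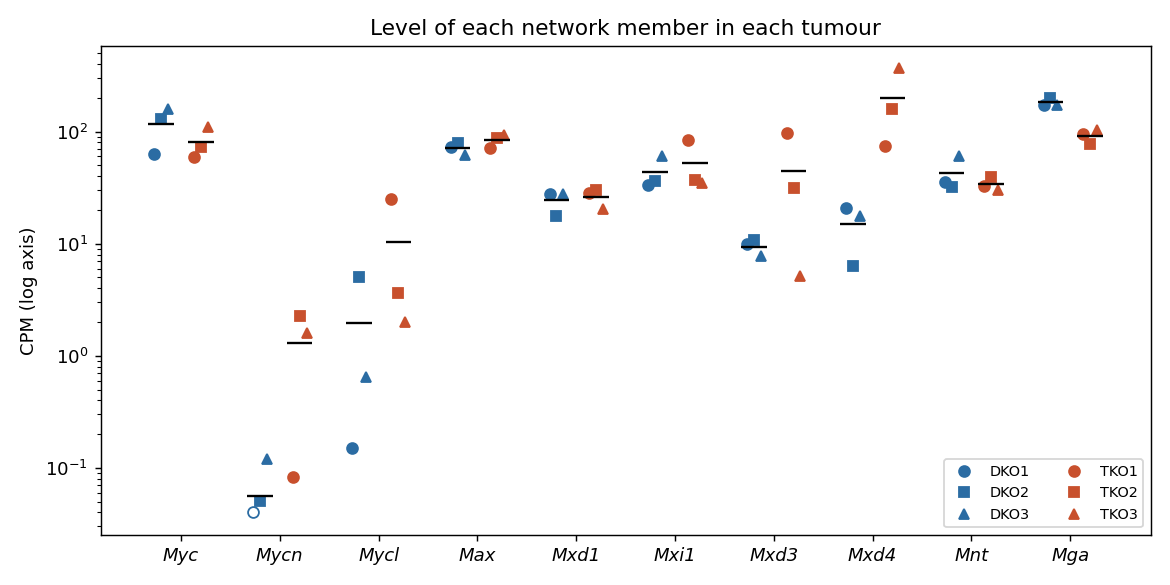
CPM of each member (log axis) in each tumour, with circles, squares and triangles for replicates 1, 2 and 3, blue for DKO and red for TKO, and a black bar at the group mean (n = 3). The open circle at the bottom stands for 0 counts of Mycn in DKO1. Mxd4 lies higher and Mga lower in all 3 TKO tumours than in any DKO tumour, while TKO1 carries the highest values of Mycl and Mxd3.

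Set against each other per kilobase of exon, Myc was the most abundant transcript of the network in DKO, at 43.2 ± 18.3 CPM per kb (SD, n = 3). Max followed at 19.8 ± 2.50, Mga at 11.9 ± 0.891 and Mnt at 9.24 ± 3.40 CPM per kb. Mxi1, Mxd3, Mxd1 and Mxd4 came next, between 6.36 and 1.77, and Mycl (0.484) and Mycn (0.0172) were lowest. Neighbours in this order were often closer than their spread, as Mga and Mnt were. In TKO the order of the means was Myc at 30.0 ± 9.76, Mxd4 at 23.7 ± 17.8, Max at 23.4 ± 3.22 and Mxd3 at 18.8 ± 19.9 CPM per kb. Mxd4 thus went from rank 8 to rank 2 of 10 and Mga from rank 3 to rank 7, at 5.99 ± 0.854. The top 3 in TKO lay within their spread, and with the longest coding transcript as the length their order became Mxd4, Max and Myc.

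Among the activators, Myc was the one expressed at a high level in every tumour. Its counts were 1263, 2522 and 2697 in DKO1 to DKO3 and 1434, 1525 and 2177 in TKO1 to TKO3. As CPM these were 62.9, 129 and 160 in DKO and 59.8, 73.5 and 111 in TKO. The groups overlapped, with the lowest value of each group in its male tumour. Among the female tumours both DKO values lay above both TKO values, a split made after the values were seen. The log2 fold change of Myc (ENSMUSG00000022346.15, chr15:61985391-61990374) was -0.53 ± 0.42 (SE), adjusted p = 0.475 by edgeR, and it was not called in any alternative. Allowing for sex gave -0.46 with an SE of 0.29 and an adjusted p of 0.368. It moved to -0.84 without DKO1, to -0.81 without TKO3, and to -0.23 without DKO3.

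Mycn (ENSMUSG00000037169.15, chr12:12936093-12941914), which drives neuroblastoma when amplified and is otherwise mostly embryonic, was close to absent. It had 0, 1 and 2 counts in DKO and 2, 47 and 31 in TKO, where TKO2 and TKO3 stood above every other library and TKO1 did not. A count of 0 here allows up to 3 counts. Relative to effective library size, the 80 TKO counts against 3 DKO counts gave a ratio of 23.4 with an exact 95% interval of 7.73 to 116, which covers counting error only. Mycn did not pass the count filter in the comparison of all 6 libraries. With no filter its log2 fold change was 4.35 (edgeR adjusted p = 0.109). Without DKO1, DKO2 or DKO3 it passed and was not called (edgeR adjusted p = 0.238, 0.302 and 0.227). Without TKO1, the TKO library with 2 counts, it passed and was called at 4.98 (edgeR adjusted p = 0.0308). That call rests on leaving out the TKO library in which Mycn was low. Even in TKO2 it stood at 0.688 CPM per kb of exon, beside 27.1 CPM per kb for Myc.

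Mycl (ENSMUSG00000028654.13, chr4:122995652-123002485), first known from small cell lung cancer, varied most within each group relative to its mean. It was 0.149, 5.06 and 0.653 CPM in DKO and 25.3, 3.62 and 1.99 CPM in TKO. The groups overlapped, and TKO1 alone held 607 of the TKO counts, against 75 and 39 in TKO2 and TKO3. With 2.39 ± 1.45 (SE) the log2 fold change was not called (edgeR adjusted p = 0.350), and it became 0.52 without TKO1 and 4.66 without DKO2. Because of Mycl, the share of Myc in the summed CPM of Myc, Mycn and Mycl was 70.2% in TKO1, where it was 92.6% in TKO2, 96.9% in TKO3 and 96.2 to 99.8% in DKO. The summed activators were 63.0, 134 and 161 CPM in DKO and 85.1, 79.4 and 115 CPM in TKO, and again overlapped.

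Max (ENSMUSG00000059436.13, chr12:76937269-76962201), the shared partner of the other members, had the narrowest range over the 6 tumours as a ratio of highest to lowest. It was 72.4, 79.3 and 61.5 CPM in DKO and 71.1, 87.9 and 93.2 CPM in TKO, with overlapping groups. Its log2 fold change was 0.24 ± 0.25 (SE), adjusted p = 0.584 by edgeR, and stayed between 0.16 and 0.34 over the 16 alternatives.

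Of the repressors, Mxd4 rose in TKO. Mxd4 (ENSMUSG00000037235.13, chr5:34173883-34187720) encodes MAD4, a MAX partner known from differentiating and resting cells. It had 421, 125 and 296 counts in DKO and 1801, 3298 and 7225 in TKO, or 21.0, 6.39 and 17.6 CPM against 75.1, 159 and 368 CPM. The groups did not overlap, and the lowest TKO tumour lay above the highest DKO tumour. Group means were 14.97 ± 7.63 and 201 ± 151 CPM (SD, n = 3), 13.4-fold apart in the edgeR fit. The log2 fold change was 3.74 ± 0.73 (SE) with an adjusted p of 0.0333.

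The direction of Mxd4 held in all 16 alternatives, from 2.97 to 4.13, but its call held in 8 of them. The adjusted p was 0.101, 0.115 and 0.125 without DKO1, DKO2 and DKO3, 0.0671 without TKO2 and 0.0637 without TKO3. It was 0.0117 without TKO1 and 2.9e-06 by DESeq2, a tool that called 2893 genes in all. Of the exon bases of Mxd4, 514 of 8483 (6.06%) lie opposite the antisense gene Gm42846. Adding up the 2 stranded count columns, which assign such reads to both genes, gave 35.7% more Mxd4 counts and a log2 fold change of 3.74. Within TKO, Mxd4 was lowest in TKO1 and highest in TKO3, as the summed osteoblast markers were. The DKO tumours had a larger osteoblast sum than TKO1 and less Mxd4, but Col1a1 alone held 9947 to 11757 CPM of that sum in DKO. Of the 13 osteoblast markers tested, 2 had groups that did not overlap, Dmp1 and Phex, both higher in TKO like Mxd4. Dmp1 was 0 CPM in each DKO tumour and 16.4 in TKO1, and Phex was 0.199 to 0.772 CPM in DKO and 44.8 in TKO1. The part of osteoblasts in the Mxd4 values was not tested. Macrophage, endothelial and muscle markers were higher in every TKO tumour, like Mxd4, but stood highest in TKO2.

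Mxd3 (ENSMUSG00000021485.14, chr13:55325168-55329823), the member of the family known from dividing cells, was high in 1 tumour and intermediate in another. It was 9.91, 10.7 and 7.72 CPM in DKO and 96.7, 31.4 and 5.20 CPM in TKO. TKO1 and TKO2 lay above all DKO tumours and TKO3 below them. Genes of dividing cells had the same order within TKO. Their sum was larger in the DKO tumours (2861 to 3009 CPM) than in TKO2 (2156 CPM), and Mxd3 was lower in DKO than in TKO2. The part of dividing cells in the Mxd3 values was not tested. Its log2 fold change of 2.24 ± 0.91 (SE) was not called (edgeR adjusted p = 0.189), and it was 0.95 without TKO1. Mxd3 shares 105 of its 2369 exon bases (4.43%) with Prelid1 on the opposite strand, a gene at 131 to 350 CPM. With the stranded columns summed, Mxd3 gained 133% in counts and its log2 fold change was 0.85, so its level is uncertain where reads of both genes cannot be told apart.

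Mxd1 and Mxi1 differed by less than the spread between tumours. Mxd1 (ENSMUSG00000001156.9, chr6:86647042-86669161), the founding repressor of the family, was 27.8, 17.7 and 27.5 CPM in DKO and 28.1, 30.0 and 20.2 CPM in TKO. Its log2 fold change was 0.10 ± 0.33 (SE), adjusted p = 0.878 by edgeR, and was -0.10 without DKO2. Mxi1 (ENSMUSG00000025025.14, chr19:53310518-53375810), which is also induced by hypoxia, was 33.6, 36.5 and 60.2 CPM in DKO and 84.8, 37.3 and 34.8 CPM in TKO. The high values were DKO3 and TKO1, and the groups overlapped. The log2 fold change of Mxi1 was 0.27 ± 0.45 (SE), adjusted p = 0.749, and was -0.28 without TKO1. Mxi1 shares 2.84% of its exon bases with Gm10197 on the opposite strand.

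Mnt (ENSMUSG00000000282.12, chr11:74830920-74845725), the broadly expressed repressor that opposes MYC in growing cells, was 35.7, 31.8 and 60.8 CPM in DKO and 32.5, 39.0 and 30.2 CPM in TKO. DKO3 alone stood high. Its log2 fold change was -0.33 ± 0.34 (SE), adjusted p = 0.573 by edgeR, and 0.02 without DKO3.

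Mga (ENSMUSG00000033943.15, chr2:119897228-119969581), the scaffold that brings MAX to PRC1.6 and a gene lost in some human cancers, was lower in every TKO tumour. It had 3496, 3875 and 2940 counts in DKO and 2288, 1604 and 2017 in TKO. As CPM these were 174, 198 and 175 in DKO and 95.4, 77.4 and 103 in TKO. The groups did not overlap and each was tight, at 182 ± 13.7 and 91.8 ± 13.1 CPM (SD, n = 3). The log2 fold change was -0.99 ± 0.25 (SE) and narrowly missed the threshold, with an adjusted p of 0.0588 by edgeR. It ranged from -1.07 to -0.87 over the 16 alternatives and was called in 2, by DESeq2 (adjusted p = 0.00612) and without TKO1 (adjusted p = 0.0429).

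**Figure D2:**
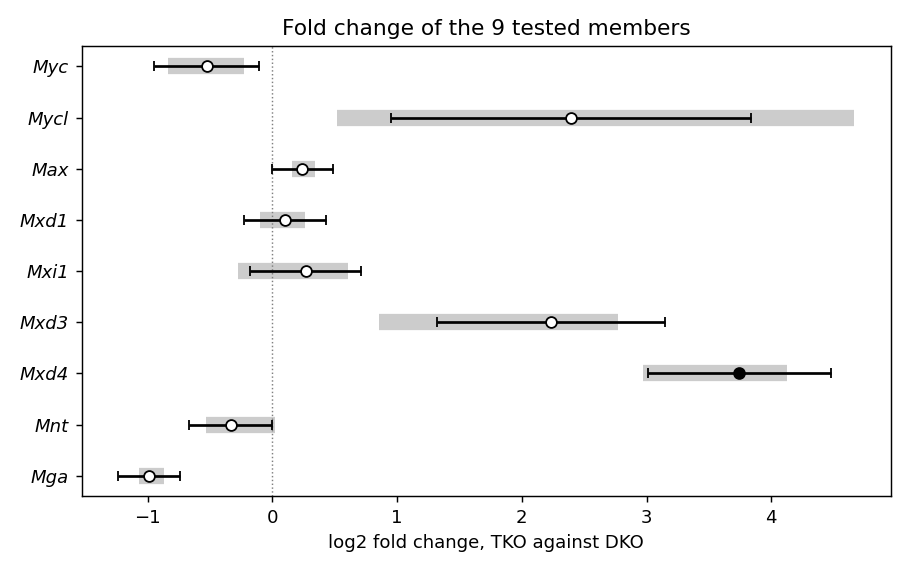
Log2 fold change of TKO against DKO for the 9 tested members (points, with SE as whiskers), and the range over the 16 alternatives (grey bars). Mxd4, the filled point at 3.74, was called, and the open points were not. The grey bars of Mxd1, Mxi1 and Mnt cross 0.

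Counted over the list, 1 of the 9 tested members was called, beside 7.36% of the 15361 genes tested. That member was higher in TKO, beside 4.89% of genes called higher, and 0 of 9 was lower, beside 2.47%. By edgeR at an unadjusted p under 0.05, 3 of 9 passed (Mxd4, Mxd3 and Mga), beside 25% of all genes. Groups did not overlap for 2 of 9, where 32.9% of all genes had groups that did not. Mxd4 was the 1 above (17.3% of genes) and Mga the 1 below (15.6%). With 9 genes, 1 call lies near these shares and is no result about the list as a whole. Of the 9, 6 had a positive and 3 a negative log2 fold change, with a median of 0.24 beside 0.09 over all genes tested.

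The make-up of the network transcripts was described in each tumour, with no test. Of the summed CPM per kb of all 10 members, the 4 MXD genes made up 19.9, 12.7 and 15.2% in DKO1 to DKO3. In TKO1, TKO2 and TKO3 they made up 51.9, 38.5 and 39.8%, so that the groups did not overlap. Among single genes, 32.9% of all tested had groups that did not overlap. Different genes filled this share. Mxd3 contributed 32.1% and Mxd4 6.95% in TKO1, whereas in TKO3 Mxd4 contributed 32.3% and Mxd3 1.63%. TKO2 lay between, with 17.3% from Mxd4 and 12.3% from Mxd3.

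Mnt and Mga together took 24.5, 19.1 and 20.6% of the summed CPM per kb in DKO and 10.4, 12.4 and 9.84% in TKO, again without overlap. The activators took 29.8, 47.0 and 49.8% in DKO and 22.2, 26.5 and 31.1% in TKO, where DKO1 and TKO3 overlapped. Max took 25.8, 21.3 and 14.4% in DKO and 15.5, 22.6 and 19.3% in TKO. Shares add up to the whole, so a larger share of one class lowers the others. With the length of the longest coding transcript in place of all exons, the MXD share was 14.9 to 23.2% in DKO and 45.9 to 58.0% in TKO. With the stranded columns summed, an alternative chosen after the values were seen, it was 37.9, 22.7 and 26.1% in DKO and 62.7, 49.3 and 48.3% in TKO, and Mxd3 alone made up 24.4% in DKO1. The groups still did not overlap under either choice, but with the stranded columns each DKO share moved by over 1.5 times.

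**Figure D3:**
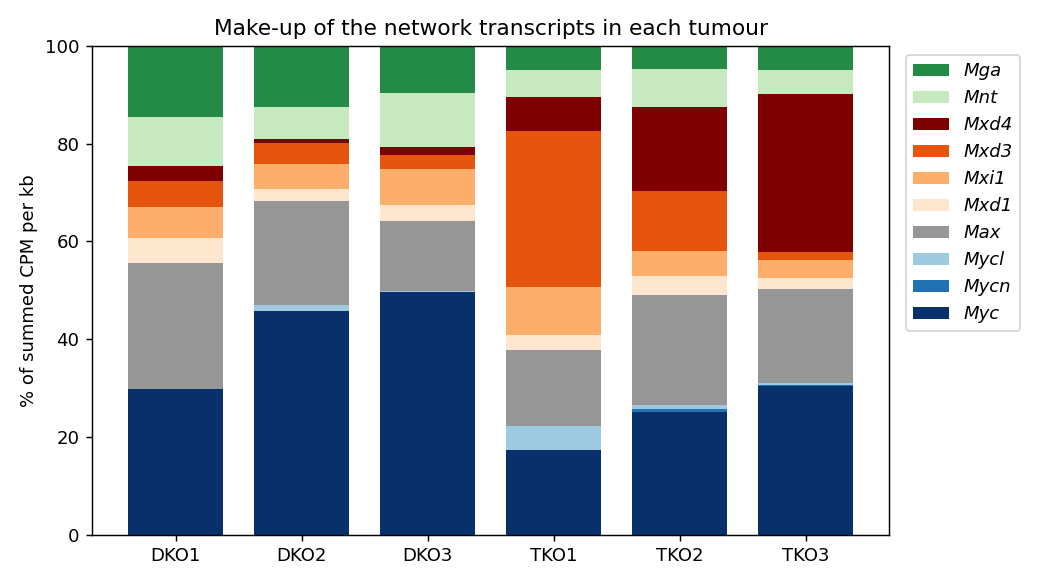
Share of each member in the summed CPM per kb of exon of all 10 members (percent), 1 bar per tumour. The orange and dark red segments of the MXD genes fill 38.5 to 51.9% of the TKO bars and 12.7 to 19.9% of the DKO bars, from Mxd3 mostly in TKO1 and from Mxd4 mostly in TKO3.

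Ratios within a library do not depend on how libraries are scaled. The log2 ratio of Mxd4 to Max counts was -1.79, -3.63 and -1.81 in DKO and 0.08, 0.86 and 1.98 in TKO. Raw Mxd4 counts thus exceeded Max counts in all 3 TKO libraries and in none of the DKO libraries. Mxd4 has 8483 exon bases and Max 3598. Per kb of exon, Mxd4 lay below Max in TKO1 (8.85 against 19.75 CPM per kb) and TKO2 (18.7 against 24.4). It lay above Max in TKO3 (43.4 against 25.9). The log2 ratio of Mga to Max was 1.27, 1.32 and 1.505 in DKO and 0.42, -0.18 and 0.14 in TKO. Both ratios separated the groups, by 3.38 and -1.24 on average. Max differed little between groups, so these ratios repeat the separation of Mxd4 and Mga in CPM. Among single genes, 32.9% of all tested had groups that did not overlap. The log2 ratio of Myc to Max was -0.20, 0.70 and 1.38 in DKO and -0.25, -0.26 and 0.25 in TKO, with overlap at DKO1. Against the summed activators, Mxd4 had log2 ratios of -1.59, -4.39 and -3.20 in DKO and -0.18, 1.00 and 1.69 in TKO. The other 5 ratios to the summed activators, of Mxd1, Mxi1, Mxd3, Mnt and Mga, overlapped between groups.

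**Figure D4:**
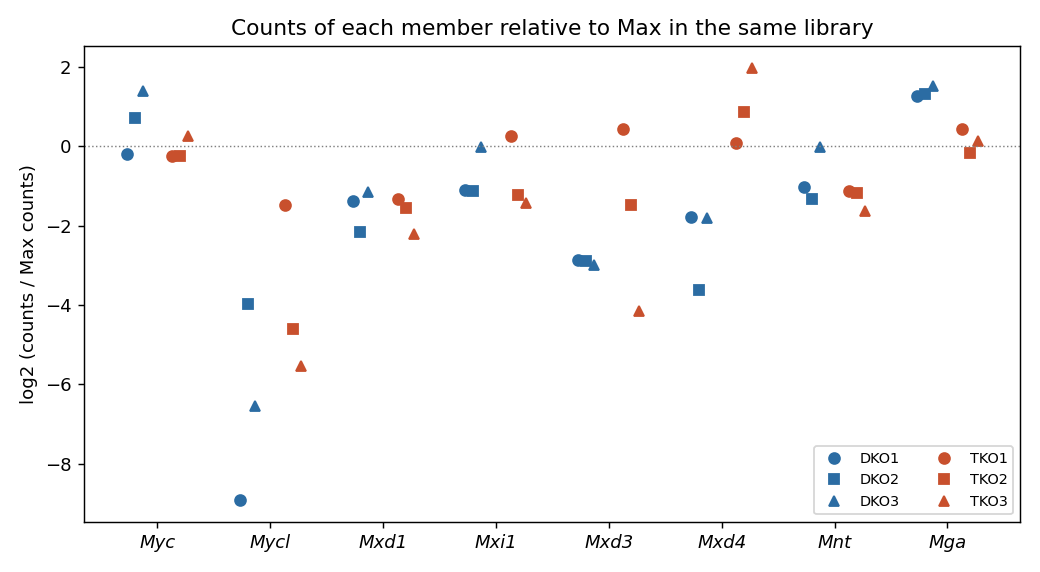
Log2 ratio of the counts of each member to those of Max in the same library (Mycn left out for its 0 count), with symbols as in the plot of levels by tumour. Mxd4 and Mga are the 2 members whose DKO and TKO points separate, where 32.9% of all genes tested had groups that did not overlap in CPM. Mxd3 spans from 0.45 in TKO1 to -4.16 in TKO3.

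The proteins that work beside the network were taken from fixed lists. The parallel MLX arm, in which Mlxip and Mlxipl sense glucose derivatives, had 0 of 3 genes called, with a median log2 fold change of -0.23. Mlx was 37.0 ± 2.85 CPM in DKO and 31.5 ± 10.3 in TKO (SD, n = 3). Cofactors of MYC had 0 of 19 called and a median of 0.04. Among those with the smallest p were Supt5, a factor of elongating RNA polymerase (log2 fold change -0.91, edgeR adjusted p = 0.0672), Actl6a, a subunit of chromatin remodellers (1.34, adjusted p = 0.102), and Wdr5, which binds MYC at chromatin (0.66, adjusted p = 0.206).

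Genes of MYC protein turnover had 1 of 18 called, which was Skp2 itself, the deleted gene, and a median of -0.30. Next by p were Usp36, a nucleolar deubiquitinase that stabilises MYC, at 107 ± 26.9 CPM in DKO and 56.3 ± 16.1 in TKO (edgeR adjusted p = 0.1303), and Fbxl14, a ligase subunit, at 29.3 ± 10.01 and 66.4 ± 32.3 (adjusted p = 0.157). Gsk3b, the kinase that primes MYC for the ligase FBXW7, was 191 ± 26.2 and 118 ± 26.7 CPM (adjusted p = 0.178). The SIN3 and NCOR corepressors, which the MXD proteins recruit, had 0 of 18 called with a median of 0.31. Sin3b was 72.6 ± 1.16 CPM in DKO and 120 ± 45.7 in TKO (adjusted p = 0.225). PRC1.6 partners of MGA had 0 of 13 called with a median of 0.09, E2f6 being 35.1 ± 6.21 CPM in DKO and 58.8 ± 15.2 in TKO (adjusted p = 0.182).

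Genes that MYC is known to activate were read in 2 lists. Of 40 targets in the nucleolus and ribosome assembly, 1 rose and 0 fell (2.5% called, beside 7.36% of all genes), and the median log2 fold change of 0.09 was that of all genes. The 1 was Gar1, a protein of the H/ACA particles that modify ribosomal RNA, at 20.1, 19.4 and 23.3 CPM in DKO and 74.1, 65.3 and 45.5 CPM in TKO. Its log2 fold change was 1.56 ± 0.29 (SE), edgeR adjusted p = 0.0303, and it was called in 10 of 16 alternatives, but not without DKO1, DKO2, DKO3 or TKO2. Gnl3 (nucleostemin) was 157 ± 11.5 CPM in DKO and 83.6 ± 14.5 in TKO, with groups that did not overlap and no call (adjusted p = 0.0764).

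Of 40 targets in metabolism and growth, 0 rose and 3 fell, and the median was 0.04. The share called was 7.5%, beside 7.36% of all genes called in either direction and 2.47% called lower. Shmt2, the mitochondrial serine hydroxymethyltransferase, was 541, 284 and 305 CPM in DKO and 84.9, 80.9 and 95.0 CPM in TKO (log2 fold change -2.11 ± 0.34 SE, edgeR adjusted p = 0.0216). Hk2, the hexokinase of growing cells, was 145, 149 and 216 CPM against 32.7, 61.2 and 28.2 CPM (-2.06 ± 0.39 SE, adjusted p = 0.0297). Tmem97, a sterol-regulated membrane protein, was 96.9, 76.9 and 105 CPM against 30.4, 39.6 and 21.2 CPM (-1.61 ± 0.32 SE, adjusted p = 0.0333). In each of the 3 the DKO and TKO tumours did not overlap. Ccnd2, encoding cyclin D2, had the lowest log2 fold change of the 4 named, -3.42, and narrowly missed the threshold (adjusted p = 0.0510), at 331, 413 and 401 CPM in DKO and 7.79, 23.2 and 75.9 CPM in TKO. Without TKO1, 11 of the 40 were called lower, without TKO2 or TKO3 only 1, and without any 1 of the DKO libraries 0, while DESeq2 called 8 lower and 1 higher. Shmt2 and Hk2 were each called in 10 of 16 alternatives and Tmem97 in 9.

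Genes that MYC is known to repress had 0 of 16 higher and 2 lower (12.5% called, beside 7.36% of all genes), with a median of -0.36. Ndrg1, the downstream-regulated gene named for its repression by MYC family proteins, was 234, 315 and 397 CPM in DKO and 130.5, 71.4 and 79.5 CPM in TKO (log2 fold change -1.75 ± 0.36 SE, edgeR adjusted p = 0.0352). Gadd45a, a growth arrest gene, was 51.0, 63.9 and 77.6 CPM against 18.5, 10.3 and 3.62 CPM (-2.57 ± 0.59 SE, adjusted p = 0.0483). Both fell and their groups did not overlap, and they were called in 9 and 6 of 16 alternatives. DESeq2 called 4 of the list lower and 1 higher. None was called without any 1 of the DKO libraries or without TKO2, and 0 lower and 1 higher without TKO3. Over all genes, 39, 2 and 0 were called without DKO1, DKO2 and DKO3, 475 without TKO2, 331 without TKO3 and 2893 by DESeq2. Cdkn2b, the CDK inhibitor p15, was 81.8, 49.3 and 77.2 CPM in DKO and 21.4, 26.9 and 8.62 CPM in TKO, without overlap and not called (log2 fold change -1.87, adjusted p = 0.0612). Ndrg2, of the same family as Ndrg1, was 18.6, 31.6 and 30.8 CPM in DKO and 124, 202 and 36.4 CPM in TKO (log2 fold change 2.16, adjusted p = 0.0833). The E-box stood in the promoter windows of 23.5% of the nucleolar targets, 31.4% of the metabolic targets and 28.6% of the repressed genes that had a window, beside 8.09% of all genes.

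Signals and factors that act on the Myc gene had 0 of 23 called and a median of 0.06. Notch1 was 15.4 ± 4.60 CPM in DKO and 42.3 ± 11.0 in TKO (edgeR adjusted p = 0.0596) and Tcf7l2, a nuclear effector of Wnt signals, 10.5 ± 3.05 and 32.5 ± 13.5 (adjusted p = 0.0719). Stat5a was 73.9 ± 21.6 and 25.9 ± 11.1 CPM (adjusted p = 0.0872) and Rbpj, the DNA-binding partner of Notch, 454 ± 64.9 and 168 ± 108 (adjusted p = 0.122). In each of these 4 the groups did not overlap, as in 32.9% of all genes.

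**Figure D5:**
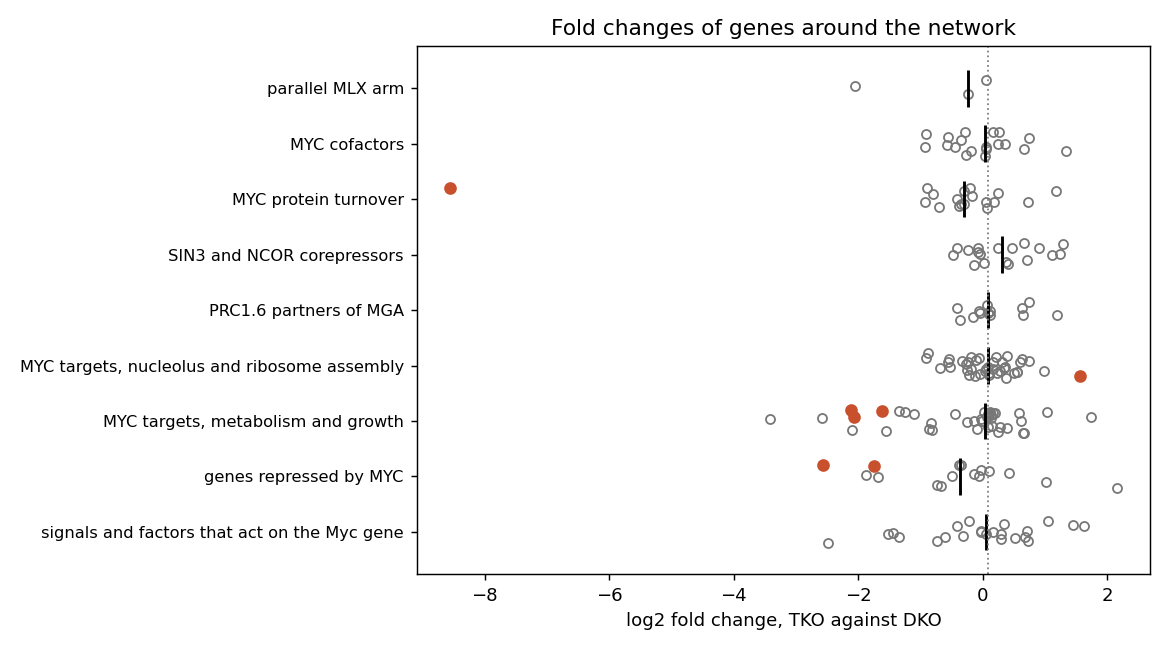
Log2 fold change of TKO against DKO for each tested gene of 9 lists around the network (points spread vertically within a list for legibility). Filled points passed the test, black bars mark list medians and the dotted line the median of all genes, 0.09. The far left point is Skp2 at -8.56, a fitted value against a group with no counts, and list medians lie between -0.36 and 0.31.

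Genes beside the activators were read for shared movement along the chromosome. Within 2 Mb of the Myc start 3 genes were tested, none was called, and all 3 had negative log2 fold changes. They were Pvt1, the long noncoding neighbour often gained with MYC (-0.60, edgeR adjusted p = 0.407), Fam84b (-1.74, adjusted p = 0.0946) and 9930014A18Rik (-1.12, adjusted p = 0.271). Near Mycn 1 of 8 was called higher, Rad51ap2, and near Mycl 1 of 31, Heyl, beside 4.89% of all genes called higher. Rad51ap2 had 1, 0 and 0 counts in DKO and 11, 16 and 52 in TKO. Heyl had no count in DKO and 15.05, 18.7 and 15.9 CPM in TKO. Both passed the count filter through TKO alone, and 1 call near each activator is no result about its surroundings. Mycl itself was high in TKO1 only.

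The genes closest to Myc in their pattern over the 6 tumours, by root mean square difference of centred log2 CPM among 12075 genes, were St3gal1 at 0.0969, Adcy6 at 0.125 and Mier2 at 0.145. St3gal1, a sialyltransferase on chromosome 15 like Myc, was 117, 213 and 278 CPM in DKO and 107, 117 and 170 CPM in TKO. The closest to Max were Fbxo7 at 0.0677, Map4k5 at 0.0701 and Gpatch2l at 0.0713, the last 2 on chromosome 12 like Max. Those closest to Mycn were Tspan18 at 0.245, Rgcc at 0.361 and Itga2 at 0.391. For Mxd4, added to this comparison after its values were seen, Daam2 was closest at 0.308, with 13.8, 5.47 and 9.50 CPM in DKO and 64.7, 89.2 and 186 CPM in TKO.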

How the data were processed

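Polyadenylated RNA of 3 DKO and 3 TKO mouse osteosarcomas was read on an Illumina HiSeq instrument (per the labels' protocols). Files deposited by the authors hold whole-number counts per gene, unnormalized, for each library and in 1 joint table (0 genes differed). Per the submitters' processing notes, STAR 2.6.1 and mm10 were used. Which gene annotation was counted is not given in the sources read here. Counts on either strand were used, since stranded columns were balanced (50.2 to 51.3% first strand), so reads of overlapping genes cannot be told apart. Each file's 4 lines of unassigned reads were left out (reads in more than 1 gene, 5.10 to 6.53%; in no gene, 5.33 to 9.30%; at several places, 3.94 to 4.70%; unmapped, 2.53 to 3.20%). Symbols, positions and exon lengths came from GENCODE M21 (GRCm38, the mm10 assembly), which matched 55240 of 56196 IDs. Depth of 17063231 to 22488819 counts limits the precision of Mycn most. No 2 libraries agreed within sampling noise.

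All genes were fitted together by edgeR's quasi-likelihood test (edgeR 4.0.16, R 4.3.3) with TMM factors, filterByExpr (minimum count 10), no covariate and Benjamini-Hochberg adjustment over 15361 genes, called at 0.05. The code was tested on simulated data. Alternatives were other scalings and filters, DESeq2 1.42.0, limma-voom 3.58.1, a replicate block, sex, stranded columns summed, and each library left out. The members and lists were chosen with earlier results of these data known. Named genes were the members, the targeted genes, up to 4 genes per list by smallest p and the 3 nearest in pattern to Myc, Mycn and Max (mean log2 CPM of at least 1). A gene named by this rule is not reported here. Genes called within 2 Mb of an activator, and those near Myc, were named after their values were seen.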

Additional observations from a re-analysis of the deposited data

How the results depend on the processing

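Over all genes, 1131 were called by edgeR's quasi-likelihood test with TMM scaling. The other scalings, no filter, limma-voom, sex and summed stranded columns gave 1108 to 1280. The count was 146 with at least 1 CPM in each group and 2893 with DESeq2, and leaving out 1 library gave 0 to 2385: 39, 2 and 0 without DKO1, DKO2 and DKO3 (3017 at an unadjusted p under 0.05 in the last), 2385 without TKO1, 475 without TKO2 and 331 without TKO3. The cause was not tested. Of the members, 1 was called; the count was 0 with at least 1 CPM in each group and with sex as a covariate, 2 with DESeq2 (Mxd4 and Mga), and 0 to 3 leaving out 1 library, the 3 being Mycn, Mxd4 and Mga without TKO1. With a replicate block, 295 genes and 0 members were called. Over all genes tested, tumours with the same number did not deviate together (correlations of -0.00699, 0.00889 and -0.0167). This cannot exclude a pairing that acts on part of the genes, and replicate 1 was male in each group. Log2 fold changes that changed sign when 1 library was left out were those of Mxd1 (-0.10 to 0.26), Mxi1 (-0.28 to 0.61) and Mnt (-0.53 to 0.0209); none of the 3 was called in any setting. Scaling moved the median of all genes from 0.09 to at most 0.12, and limma-voom to 0.02. Depth limits Mycn, at 0 to 47 counts a library.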

Other observations

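Chromosomal position recurred among the genes closest to members in pattern, a description made after the values were seen and with no test. Of the 50 genes closest to Myc over the 6 tumours, 8 lay on chromosome 15 (16%), which holds 4.02% of the genes compared. The number on the member's own chromosome was 13 for Mnt (chromosome 11, 26% beside 8.17%), 11 for Mycl (22% beside 6.25%), 10 for Mxd3 (20% beside 3.66%), 8 for Max (16% beside 3.54%) and 7 for Mxi1 (14% beside 3.45%). It was 2 for Mxd4, 3 for Mycn, and 4 each for Mxd1 and Mga. Another chromosome recurred for both of these, with 14 of the 50 genes closest to Mga on chromosome 7 and 11 of those closest to Mxd1 on chromosome 11. Over all 12075 genes the median was 4, and 24.5% of genes had 7 or more, as 6 of the 10 members did.

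Myc was read against its surroundings on chromosome 15. Its centred log2 CPM was -0.56, 0.47 and 0.79 in DKO1 to DKO3 and -0.63, -0.33 and 0.26 in TKO1 to TKO3. The median of 15 genes between 60 and 70 Mb, Myc among them, was -0.27, 0.27 and 0.29 in DKO and -0.16, -0.27 and 0.09 in TKO, with the sign of Myc in all 6 tumours. The windows on either side did not share it throughout. Between 50 and 60 Mb (32 genes) the median was 0.25, 0.06 and 0.27 in DKO and 0.34, -0.50 and -0.65 in TKO, opposite to Myc in DKO1, TKO1 and TKO3. Between 70 and 80 Mb (122 genes) it was -0.27, 0.19 and 0.31 in DKO and 0.19, -0.18 and -0.12 in TKO, opposite in TKO1 and TKO3. Over all 485 genes of the chromosome the median was -0.12, 0.23 and 0.28 in DKO and 0.12, -0.27 and -0.18 in TKO. Copy number was not measured in these files.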
